A study of Danio rerio with 4 samples.

Results

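Activin A and activin B are secreted growth factors, and each is a dimer of chains encoded by the inhibin beta genes. The genes described here are the activin subunit genes inhbaa, inhbab and inhbb, the follistatin genes fsta and fstb, whose products bind activins outside the cell and block them, and the receptor genes acvr1ba, acvr2aa, acvr2ba and acvrl1. The set was listed by gene symbol, and all 9 symbols matched 1 row each among the 20306 genes of the deposited table. The genes were selected on their normalized counts in Regenerating and Non-Regenerating cells, with results of that comparison already known, so their values in it are a description. Counts of calls among the 9 are printed only beside the share of all genes, and nothing is read from them.

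The study sequenced RNA in bulk from coronary endothelial cells, the lining cells of the heart's vessels, of wild-type zebrafish at 7 days after cryoinjury, a freezing injury of the ventricle. Cells were sorted from the injured ventricles for the red reporter -0.8flt1:RFP, which marks the coronary endothelium, and then by the yellow reporter cxcr4a:YFP. The Regenerating group (2 libraries) was taken to be the cells positive for both reporters, and the Non-Regenerating group (2 libraries) the cells positive for the red reporter and negative for the yellow one. The labels give both gates but do not state which heading of the table belongs to which gate, and the assignment rests on knowledge of the reporter. Both groups came from cryoinjured hearts, so neither is an uninjured control. Nothing in the labels says how many animals were pooled, how old they were, or whether replicates came from separate animals, and the spread between replicates may therefore be technical.

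Activins bind a type II receptor, encoded by acvr2aa or acvr2ba among the genes described, which then activates a type I receptor such as the one encoded by acvr1ba (Alk4). The activated type I receptor phosphorylates the transcription factors Smad2 and Smad3, which enter the nucleus with Smad4. The product of acvrl1 (Alk1) is a type I receptor of endothelium that responds to BMP9 and BMP10 and signals through Smad1, Smad5 and Smad9, and loss of its human counterpart causes hereditary haemorrhagic telangiectasia, a disease of malformed vessels. In the zebrafish heart, signalling through the type I receptors of activin and TGF-beta is needed for regeneration after cryoinjury, and inhbaa is known there for promoting the division of heart muscle cells.

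About 5 ng of total RNA went into each library, whose normalized counts summed to between 10481747 and 10761712. The cxcr4a gene had 2285 and 2242 normalized counts in Regenerating, against 585 and 590 in Non-Regenerating. All 9 endothelial markers examined were detected in every library, at summed levels of 54686 and 58892 in Regenerating, against 60215 and 64776 in Non-Regenerating. Markers of other cell types were also detected, and whether their RNA came from such cells was not tested. Summed values of 9 heart muscle markers were 35645 and 15754 in Regenerating, against 5810 and 3450 in Non-Regenerating, and no heart muscle marker was at 0 in any library. In bulk RNA, fewer cells of a type and less RNA per cell cannot be told apart.

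The 2 genes for activin A chains stood in opposite directions. The inhbaa gene was higher in both Regenerating libraries, by 1.81-fold, while inhbab was lower in both, by 16.6-fold. No other gene of the set differed by as much as 2-fold. Among receptors, acvr2aa and acvrl1 were higher in both Regenerating libraries and acvr1ba and acvr2ba were lower in both. The genes inhbb, fsta and fstb overlapped between the groups.

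Of the 9 genes, 3 were higher in both Regenerating libraries than in either Non-Regenerating library, 3 were lower in both and 3 overlapped. Over all 16928 genes tested, 43.2% did not overlap between the groups, 21.8% with Regenerating higher and 21.5% with Regenerating lower. A difference of at least 2-fold was seen in 1 of the 9 genes, inhbab, against 15.3% of all genes tested, with 9.77% of all genes higher and 5.55% lower in Regenerating. With limma and Benjamini-Hochberg adjustment over all genes tested, none of the 9 was called, as against 0.00591% of all genes, a single gene. At an unadjusted p under 0.05, limma picked out inhbaa as higher and inhbab and acvr1ba as lower, 3 of 9, against 12.8% of all genes, with 7.62% higher and 5.19% lower. Because the set was listed with this comparison in view, nothing is read from these shares. All 9 genes had at least 10 normalized counts in each of the 4 libraries, so none entered through 1 group alone.

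**Figure D1:**
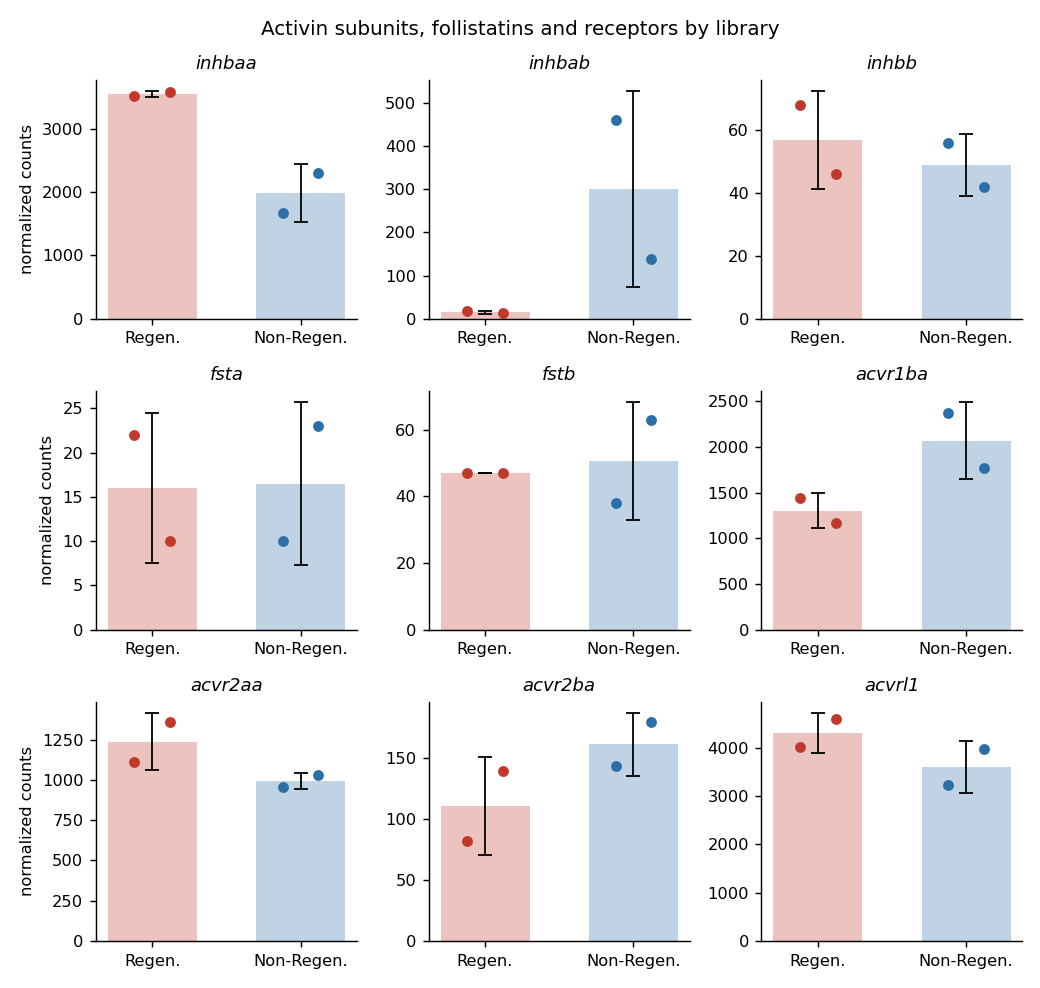
Normalized counts (y axis, from 0, a separate scale for each gene) of the 9 genes in Regenerating (left, red) and Non-Regenerating (right, blue) cells. Points are libraries, with replicate 1 on the left, bars are means and error bars are SD (n = 2 each). The 2 Regenerating points of inhbab, at 17 and 12, lie near 0, below the Non-Regenerating points at 461 and 139.

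The subunit gene inhbaa (ENSDARG00000012671, chromosome 24, 3050020 to 3062610, plus strand, danRer11) had 3523 and 3589 normalized counts in Regenerating, against 1667 and 2311 in Non-Regenerating. Both Regenerating libraries lay well above both Non-Regenerating libraries, and the Regenerating pair of values was much the closer together. The means were 3556 ± 46.7 in Regenerating, against 1989 ± 455 in Non-Regenerating (SD, n = 2 each). On the scale of log2(value + 1), the difference was 0.86 (SE 0.183). Leaving out Non-Regenerating replicate 1 gave 0.62, and leaving out Non-Regenerating replicate 2 gave 1.09, past 2-fold.

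The second activin A gene, inhbab (ENSDARG00000024759, chromosome 2, 21485492 to 21504467, plus strand), had 17 and 12 normalized counts in Regenerating, against 461 and 139 in Non-Regenerating. Both Regenerating libraries held few reads of the gene, and the Non-Regenerating libraries differed from each other by 3.32-fold. The means were 14.5 ± 3.54 in Regenerating, against 300.0 ± 228 in Non-Regenerating (SD, n = 2 each). Of all genes tested, 6.07% had a wider gap between the Non-Regenerating replicates on the log2 scale. Counting error alone gave exact 95% Poisson intervals of 9.82 to 26.2 and 6.16 to 20.8 normalized counts for the Regenerating libraries, against 420 to 505 and 116 to 165 for the Non-Regenerating libraries. Reads carried no molecular identifiers, so these intervals cover counting error only. The log2 difference was -4.06 (SE 0.666). It came to -3.19 with Non-Regenerating replicate 1 left out and to -4.92 with Non-Regenerating replicate 2 left out, so the size of the fold depended on the Non-Regenerating library used.

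The activin B gene inhbb (ENSDARG00000040777, chromosome 9, 36967294 to 36974879, plus strand) encodes the beta B chain. It had 68 and 46 normalized counts in Regenerating, against 56 and 42 in Non-Regenerating. The groups overlapped, and the log2 difference of 0.20 (SE 0.437) was smaller than its error. Its sign depended on the library left out, at -0.07 without Regenerating replicate 1 against 0.48 when replicate 2 of that group was omitted.

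The balance of the activin A genes could be read within each library, which removes any factor common to the whole library. The ratio of inhbaa to inhbab was, on the log2 scale, 7.61 and 8.11 in Regenerating, against 1.85 and 4.05 in Non-Regenerating. All Regenerating ratios were above all Non-Regenerating ratios, and the mean ratio was 30.1-fold larger in Regenerating. With inhbaa higher and inhbab lower in both Regenerating libraries the ratios had to separate, so they restate the 2 differences and are no further support. Counts are not divided by transcript length, so the ratio itself is not a ratio of molecules, and only its shift between the groups can be read. The ratio of inhbaa to inhbb overlapped between the groups, at 5.67 and 6.26 in Regenerating, against 4.87 and 5.75 in Non-Regenerating.

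**Figure D2:**
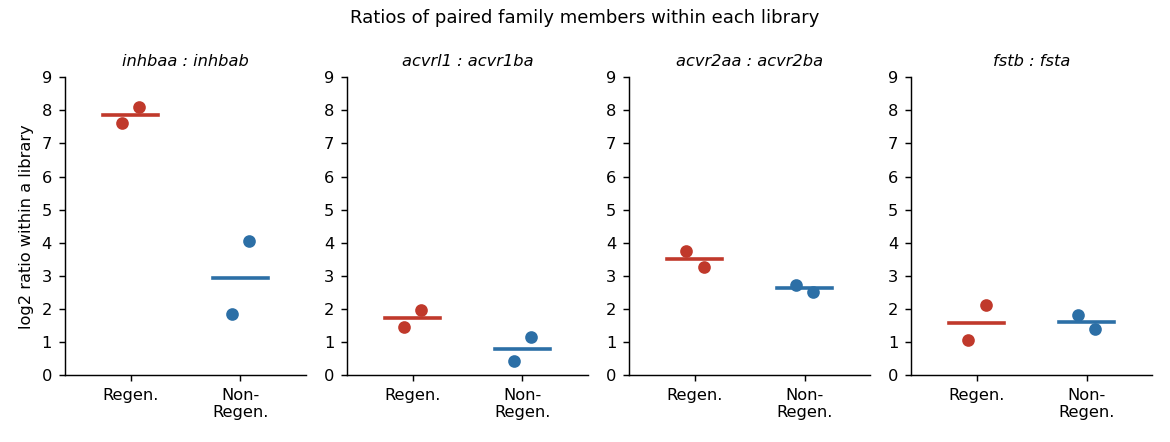
Log2 ratio of the normalized counts + 1 of paired genes within each library (y axis), in Regenerating (left, red) and Non-Regenerating (right, blue). Points are libraries and lines are means (n = 2 each). The ratio of inhbaa to inhbab averages 7.86 in Regenerating and 2.95 in Non-Regenerating, while that of fstb to fsta averages 1.59 in Regenerating and 1.62 in Non-Regenerating. Ratios are not corrected for transcript length and are read only between groups.

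Markers of other cell types differed between the groups alongside the subunit genes. Of 8 marker genes of the endocardium, which lines the heart chambers, 6 were lower in both Regenerating libraries and none higher. Of all genes tested, 21.5% were lower and 21.8% higher in both. The summed values of the endocardial markers were 11845 and 11835 in Regenerating, against 20211 and 15441 in Non-Regenerating, with no marker at 0. Of the 9 endothelial markers, 5 were also lower in both Regenerating libraries and none higher. The neuregulin gene nrg2a had 52 and 23 normalized counts in Regenerating, against 788 and 250 in Non-Regenerating, and the transcription factor gene gata5 had 601 and 207 in Regenerating, against 3586 and 1819 in Non-Regenerating. Both were picked from the 8 endocardial markers after their values were seen. Of the other endocardial markers, nrg1 and gata4 had log2 differences of -4.27 and -2.81. Those of nfatc1 (-0.57), notch1b (-0.47), spock3 (-0.29) and klf2a (-0.13) were much smaller. As with inhbab, nrg2a and gata5 were higher in Non-Regenerating replicate 1 than in Non-Regenerating replicate 2, while the endocardial markers spock3 and klf2a were lower there. This order was not particular to the endocardium. It held for 6 of 8 endocardial, 8 of 9 heart muscle and 7 of 8 macrophage markers, and for 9 of 11 markers of epicardium and fibroblasts. It also held for 7 of 7 mural and 3 of 3 neutrophil markers, and for 2 of 6 markers of erythrocytes and thrombocytes. Among the 9 endothelial markers it held for 1. The share of all genes with this order was not computed, so nothing is read from these counts. The 11 markers of epicardium and fibroblasts summed to 16723 and 16277 in Regenerating, against 29634 and 24612 in Non-Regenerating, with 6 lower and 3 higher in both Regenerating libraries. In the direction of inhbaa, all 9 heart muscle markers and 5 of 8 macrophage markers were higher in both Regenerating libraries, beside 21.8% of all genes tested. The inhbaa gene was lower in Non-Regenerating replicate 1 than in Non-Regenerating replicate 2, at 1667 against 2311. So were the heart muscle marker ttn.2 (137 against 144) and the macrophage marker lcp1 (1626 against 1892), while the other markers of these types had the opposite order. Macrophage markers summed to 6491 and 7092 in Regenerating, against 4886 and 4018 in Non-Regenerating. The 7 markers of mural cells summed to 13109 and 9168 in Regenerating, against 8336 and 5106 in Non-Regenerating, with 1 higher in both Regenerating libraries. This was myh11a, the largest part of the sum, at 7757 and 7956 in Regenerating, against 4029 and 3298 in Non-Regenerating. The other mural markers overlapped between the groups. For 3 neutrophil markers the sums were 792 and 822 in Regenerating, against 314 and 109 in Non-Regenerating, with 1 higher and 1 lower in both. The lower one, mpx, was too low to be tested, at 1 and 3 in Regenerating, against 9 and 4 in Non-Regenerating. The 6 markers of erythrocytes and thrombocytes summed to 946 and 805 in Regenerating, against 1029 and 1794 in Non-Regenerating, with 3 lower in both Regenerating libraries and 0 higher. Most of this sum was thbs1b, at 779 and 758 in Regenerating, against 954 and 1721 in Non-Regenerating. That gene is also in the wider pathway list described below. The part of any of these cell types in the values of inhbab and inhbaa was not tested.

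The genes whose profiles lay nearest to each activin A gene were found by the Euclidean distance between log2(value + 1) profiles centred on their mean over the 4 libraries, among 13087 genes with a symbol and a mean of at least 50. For inhbab the 3 nearest were kcng1, bmp10 and atrnl1a, at distances of 0.318, 0.350 and 0.380. The potassium channel subunit gene kcng1 had 79 and 45 normalized counts in Regenerating, against 1645 and 464 in Non-Regenerating. The gene bmp10, which encodes a ligand of the receptor Alk1, had 33 and 26 in Regenerating, against 1161 and 347 in Non-Regenerating. The gene atrnl1a had 48 and 32 in Regenerating, against 886 and 318 in Non-Regenerating. In each, as in inhbab, Non-Regenerating replicate 1 was the highest library and Regenerating replicate 2 the lowest. The choice of nearest profiles favours such a shared order. For inhbaa the 3 nearest were CABZ01058261.1, si:dkey-188i13.9 and azin1a, at distances of 0.0359, 0.0450 and 0.0766. The antizyme inhibitor gene azin1a had 3448 and 3479 normalized counts in Regenerating, against 1652 and 2135 in Non-Regenerating. With only 4 libraries many genes can share such a profile by their group difference alone, and the distances are a description.

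**Figure D3:**
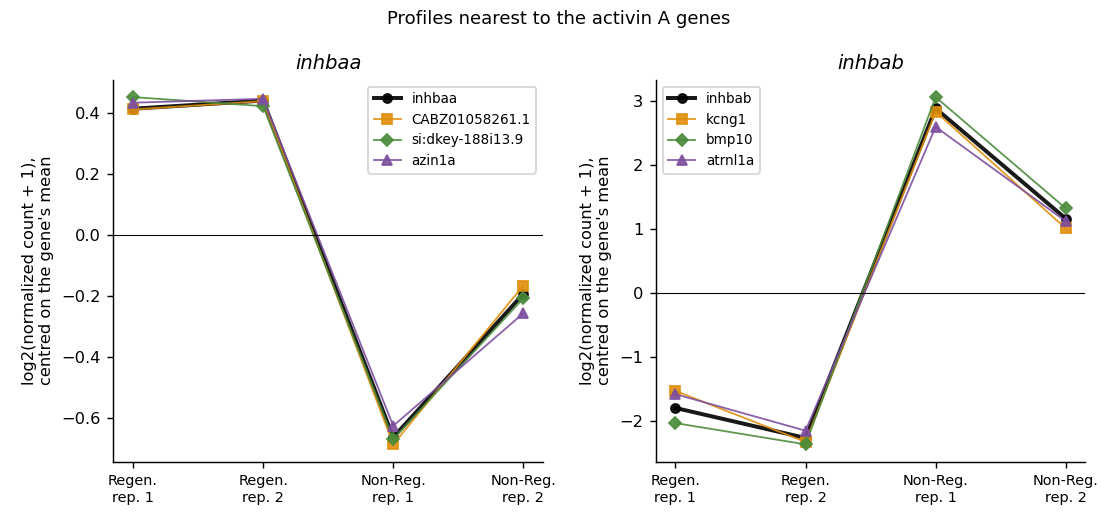
Profiles of inhbaa (left) and inhbab (right) and of the 3 genes nearest to each, as log2(normalized count + 1) centred on each gene's mean (y axis), in the 4 libraries (x axis, Regenerating left). Lines join the values of 1 gene and carry no order between libraries. The profile of inhbab peaks in Non-Regenerating replicate 1 at 2.89, and that of inhbaa is lowest there at -0.66.

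The follistatin genes were low and did not separate the groups. The gene fsta (ENSDARG00000052846, chromosome 5, 40504910 to 40510399, minus strand) had 22 and 10 normalized counts in Regenerating, against 10 and 23 in Non-Regenerating. The gene fstb (ENSDARG00000057992, chromosome 10, 8968203 to 8976823, plus strand) had 47 and 47 in Regenerating, against 38 and 63 in Non-Regenerating. In both genes the Regenerating values lay within the range of the Non-Regenerating values. The log2 differences were -0.03 (SE 0.743) for fsta and -0.06 (SE 0.450) for fstb. Each changed sign with the library left out, over -0.59 to 0.53 for fsta and -0.42 to 0.30 for fstb.

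The type I receptor gene acvr1ba (ENSDARG00000018968, chromosome 23, 27800519 to 27822920, minus strand) encodes Alk4, the receptor that passes the activin signal to Smad2 and Smad3. It had 1441 and 1167 normalized counts in Regenerating, against 2365 and 1772 in Non-Regenerating. Both Regenerating libraries lay below both Non-Regenerating libraries. The means were 1304 ± 194 in Regenerating, against 2069 ± 419 in Non-Regenerating (SD, n = 2 each), with a log2 difference of -0.66 (SE 0.203). Omission of a Non-Regenerating library left it at -0.45 (replicate 1 omitted) or -0.87 (replicate 2 omitted).

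The other type I receptor gene, acvrl1 (ENSDARG00000018179, chromosome 23, 27835647 to 27857104, minus strand), had 4007 and 4589 normalized counts in Regenerating, against 3221 and 3976 in Non-Regenerating. The lower Regenerating value was barely above the higher Non-Regenerating value. The means were 4298 ± 412 in Regenerating, against 3599 ± 534 in Non-Regenerating (SD, n = 2 each), and the log2 difference was 0.26 (SE 0.149). Omitting Non-Regenerating replicate 1 gave 0.11 and omitting replicate 2 of that group gave 0.41. The genes acvr1ba and acvrl1 are neighbours, read from the same strand, with 12726 base pairs and no other listed gene between their annotated spans. Their values differed between the groups in opposite directions. The log2 ratio of acvrl1 to acvr1ba within a library was 1.47 and 1.97 in Regenerating, against 0.45 and 1.17 in Non-Regenerating, a shift of 1.89-fold. This shift restates the opposite differences of the genes and is no further support.

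The type II receptor genes also differed from each other in direction. The gene acvr2aa (ENSDARG00000011188, chromosome 9, 25380758 to 25444091, minus strand) had 1113 and 1363 normalized counts in Regenerating, against 959 and 1030 in Non-Regenerating. The gene acvr2ba (ENSDARG00000044422, chromosome 24, 41167269 to 41220538, minus strand) had 82 and 139 in Regenerating, against 143 and 179 in Non-Regenerating. The groups did not overlap in either gene, but for acvr2ba the gap was 4 normalized counts, between 139 in Regenerating and 143 in Non-Regenerating, and the Regenerating replicates differed from each other by 1.70-fold. The log2 differences were 0.31 (SE 0.169) for acvr2aa and -0.58 (SE 0.379) for acvr2ba. Without Regenerating replicate 1 the difference of acvr2ba was -0.20, and without Regenerating replicate 2 it was -0.96. For acvr2aa these omissions gave 0.46 and 0.16 in turn. The ratio of acvr2aa to acvr2ba within a library was 1.85-fold larger in Regenerating, which restates their opposite differences.

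**Figure D4:**
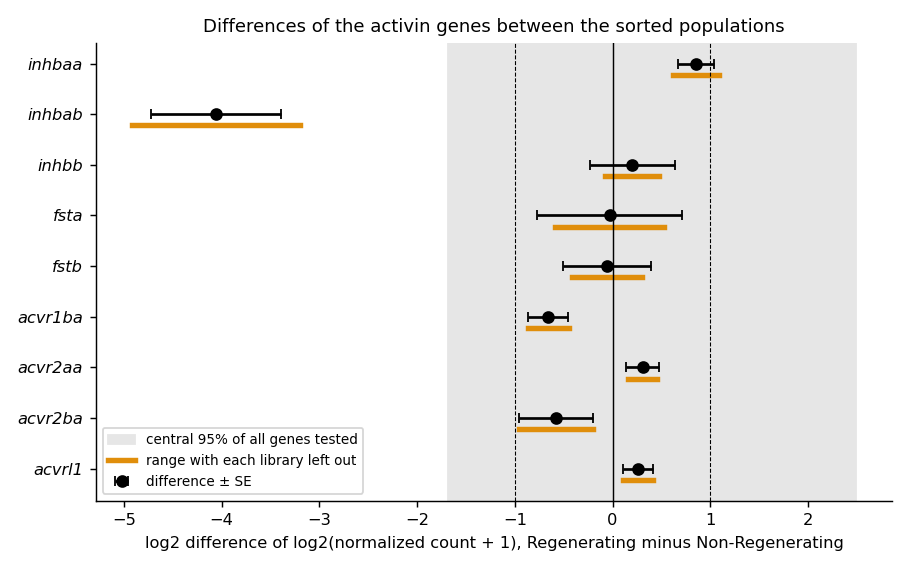
Log2 difference of log2(normalized count + 1), Regenerating minus Non-Regenerating (x axis), for the 9 genes. Black points are differences with their SE, orange lines the range when each library in turn was left out, the grey band the central 95% of all genes tested (-1.68 to 2.49) and dashed lines mark 2-fold. Only inhbab, at -4.06, lies outside the band.

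None of the 9 annotated spans overlapped another gene of the table. The activin A genes, the follistatin genes and the type II receptor genes come in related copies, and reads from stretches that the copies share could be split between them by the authors' counting. The file's pathway annotation placed 6 of the 9 in TGF-beta signalling and left inhbaa, fstb and acvrl1 out.

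Among further receptor genes of the family, acvr1bb, acvr2ab and acvr2bb had low values, while acvr1l was above acvr1ba in every library. The second copy of the Alk4 gene, acvr1bb, had 54 and 61 normalized counts in Regenerating, against 34 and 59 in Non-Regenerating. Of the type II copies, acvr2ab had 63 and 66 in Regenerating, against 67 and 74 in Non-Regenerating. The other copy, acvr2bb, had 21 and 31 in Regenerating, against 50 and 37 in Non-Regenerating. The gene acvr1l, a zebrafish type I receptor gene of the BMP branch also called alk8, had 1767 and 1794 in Regenerating, against 2466 and 2128 in Non-Regenerating, with a log2 difference of -0.36 (SE 0.134). None passed limma's adjusted threshold, with adjusted p-values between 0.368 for acvr1l and 0.934 for acvr2ab.

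A wider list of 58 names of the activin pathway, which holds none of the 9 genes, was examined by role. Of these names 46 matched 1 row and 42 of them were tested, and inha, mstna, mstnb and acvr1c were among the names without a match, so they were not analysed here. No gene of the list was called by limma after adjustment over all genes. At an unadjusted p under 0.05, 2 were higher and 8 lower in Regenerating, 23.8% of those tested beside 12.8% of all genes. These were 10 genes in all, among them lft1 and zfyve9b, which passed the low-value filter through 1 group alone. The list was written with earlier results of these data known, so nothing is read from its shares. Leaving out Regenerating replicate 1 gave 2 genes, 4.76% of the list beside 6.78% of all genes, and leaving out Regenerating replicate 2 gave 3 genes, 7.14% beside 7.41%. With Non-Regenerating replicate 1 left out there were 6 genes, 14.3% beside 8.28%, and with replicate 2 of that group left out 8 genes, 19.0% beside 12.4%. The median log2 difference was -0.08 over the list and 0.0013 over all genes tested.

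The named Smad genes had log2 differences between -0.40 (smad4a) and 0.40 (smad3b). Normalized counts of smad2 were 1829 and 1701 in Regenerating, against 1917 and 1755 in Non-Regenerating. For smad3a they were 3011 and 3455 in Regenerating, against 2671 and 2967 in Non-Regenerating, and for smad3b 390 and 356 in Regenerating, against 268 and 298 in Non-Regenerating. Both smad3 genes were higher in both Regenerating libraries, as were 21.8% of all genes tested. Neither passed adjustment (adjusted p = 0.618 and 0.528 by limma). The common partner gene smad4a had 185 and 227 in Regenerating, against 271 and 269 in Non-Regenerating. Its second copy smad4b, named after its values were seen, had 151 and 154 in Regenerating, against 152 and 103 in Non-Regenerating. The groups overlapped for smad4b, with a log2 difference of 0.28. The inhibitory smad7 had 796 and 1126 in Regenerating, against 826 and 1058 in Non-Regenerating.

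Of the 4 genes of the Ski family of corepressors, which hold Smad signalling back, 3 had lower values in both Regenerating libraries, as did 21.5% of all genes tested, and these 3 were named for their small p-values. The product of skia binds Smad complexes and represses their targets, and the gene had 2727 and 2635 normalized counts in Regenerating, against 4729 and 4033 in Non-Regenerating, with a log2 difference of -0.70 (SE 0.124, limma adjusted p = 0.176). Its relatives skib and skila had log2 differences of -0.32 (SE 0.121, adjusted p = 0.371) and -0.55 (SE 0.181, adjusted p = 0.325). The fourth gene, skilb, chosen after its values were seen, had 2119 and 2168 in Regenerating, against 1928 and 2236 in Non-Regenerating. No member of this family passed the adjusted threshold. Other genes that hold the pathway back had log2 differences of 0.02 (smad7), 0.08 (tgif1) and 0.09 (smurf1). Values below 0 were found for smurf2 (-0.39), bambia (-0.28) and bambib (-0.63). All of these but smad7 were named after their values were seen.

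Of the 7 tested genes for secreted or membrane inhibitors and coreceptors, 1 (fstl3) was at least 2-fold higher and 1 (lft1) at least 2-fold lower in Regenerating. Over all genes tested, 9.77% were at least 2-fold higher and 5.55% at least 2-fold lower. The median log2 difference of the 7 genes was 0.0018. The follistatin-like gene fstl3, whose mammalian product also binds activin, had 46 and 150 normalized counts in Regenerating, against 24 and 16 in Non-Regenerating. Both Regenerating libraries were higher, but 150 and 46 lie far apart (log2 difference 2.03, SE 0.692, limma adjusted p = 0.338). The difference was 2.87 with Regenerating replicate 1 left out and 1.19 with Regenerating replicate 2 left out. The gene gdf11, a ligand of the same type II receptors, had 11 and 45 in Regenerating, against 2 and 9 in Non-Regenerating, and gdf3, named after its values were seen, had 30 and 42 in Regenerating, against 2 and 21 in Non-Regenerating. The Nodal antagonist gene lft1 had 0 and 3 in Regenerating, against 20 and 10 in Non-Regenerating. The Smad anchor gene zfyve9b had 18 and 22 in Regenerating, against 2 and 7 in Non-Regenerating. The genes gdf11, lft1 and zfyve9b passed the low-value filter through 1 group alone, so they had to differ.

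Further genes with the smallest unadjusted p-values of the list were lower in Regenerating. The TGF-beta receptor gene tgfbr2a had 225 and 241 normalized counts in Regenerating, against 411 and 528 in Non-Regenerating (log2 difference -0.997, SE 0.235, limma adjusted p = 0.212). The gene ltbp1, which encodes a protein that stores latent TGF-beta in the matrix, had 135 and 116 in Regenerating, against 511 and 226 in Non-Regenerating. The matrix gene tgfbi had 1282 and 1441 in Regenerating, against 1838 and 2874 in Non-Regenerating. All 3 had both Regenerating libraries below both Non-Regenerating libraries, as did 21.5% of all genes tested. They were named for their small p-values, so nothing is read from this, and none was called. Of the 8 tested targets of Smad2 and Smad3, 3 had differences above 0 and 5 below, with a median of -0.18.

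**Figure D5:**
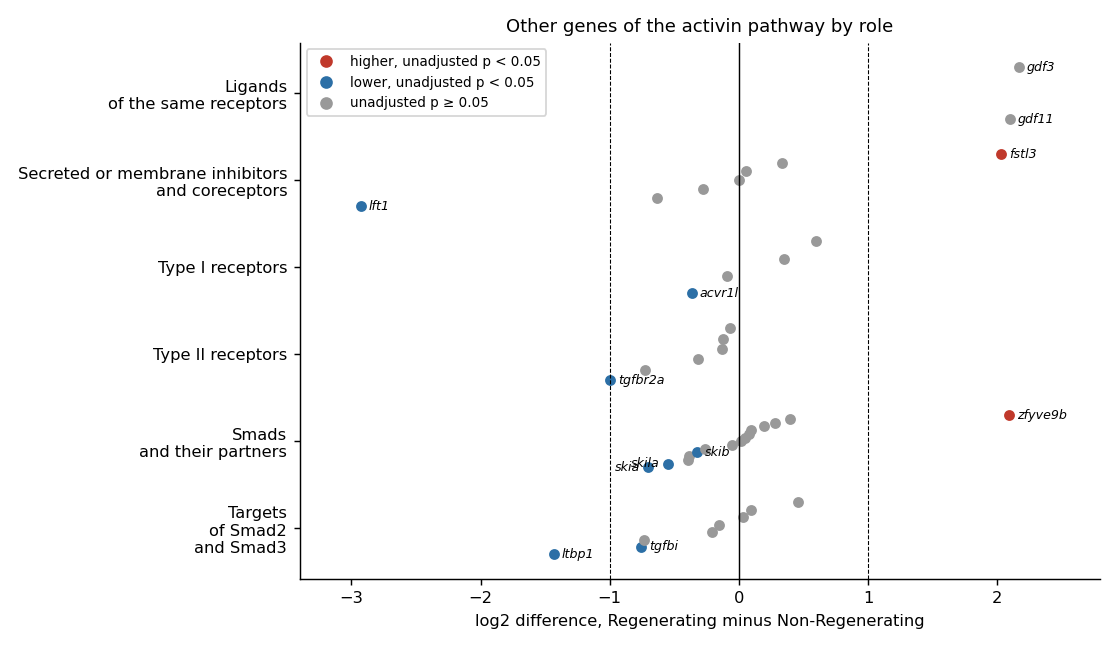
Log2 difference, Regenerating minus Non-Regenerating (x axis), of the 42 tested genes of the wider activin pathway list by role (y axis, spread vertically for legibility). Red and blue points had an unadjusted p under 0.05 by limma and grey points did not, and dashed lines mark 2-fold. The points lie between -2.93 (lft1) and 2.17 (gdf3), and none passed adjustment over all genes.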

How the data were processed

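The deposited table holds gene counts that the authors normalized between libraries and gave as whole numbers. This unit was recorded as a score, since the deposited values are neither raw counts nor a rate. The submitters' processing notes name the build danRer11 and, without saying what each did, DESeq2 1.36.0, featureCounts 2.0.4, Picard 3.1.1, STAR 2.7.11a and Trimmomatic 0.39. From the steps in the values, 1 read was worth between 0.9205 and 1.0844 normalized counts. Values are not per length.

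A gene was tested if 2 or more of the 4 libraries had a value of 10 or above, and 16928 were. The log2(value + 1) scale, which understates folds of low genes, was fitted with limma 3.58.1 in R 4.3.3 (mean-variance trend, 2 residual and 3.08 prior degrees of freedom). The fit was tested on simulated data. A gene was called at an adjusted p (Benjamini-Hochberg) under 0.05. No count model was used.

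The 9 genes and the lists were chosen with earlier results of these data known. Named besides the 9 were 15 family and Smad genes whatever their values, the 8 other list genes with the smallest unadjusted p, the reporter genes and the 3 nearest profiles. The reporter gene flt1 had 5496 and 5925 normalized counts in Regenerating and 6595 and 6649 in Non-Regenerating.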

Additional observations from a re-analysis of the deposited data

How the results depend on the processing

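The single gene called among all genes was lost without the variance trend (0 called) and without any 1 library (0 to 0 called), where 1147 to 2101 genes had an unadjusted p under 0.05, against 2168 with all libraries. The wider activin pathway list had 10 genes at that level, against 6 with quantile scaling, 6 without the variance trend and 2 to 8 with a library left out. The number of the 9 genes past 2-fold was 1 to 2 with a library left out, the second being inhbaa. A filter of at least 50 left fsta and fstb untested. The other scalings, filters and pseudocount changed the sign of none of the 9 genes but inhbb under quantile scaling, and with a library left out inhbb, fsta and fstb changed sign.

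The replicate numbers of the titles were also used as a block. Differences between replicates 1 and 2 correlated across genes between the groups (r = 0.339 over 16928 genes, which are not independent), but nothing says that a number marks a shared animal, pool or day. With the replicate block, limma called 357 genes, with 3485 at an unadjusted p under 0.05, 1 gene of the wider list, skia, and 1 of the 9 genes, inhbab, against 0 of each without the block.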

Other observations

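The file's annotation gives a further view of the pathway that was not written by hand. It shares genes with the wider list, so the counts of the lists are not independent. Of 82 genes it places in TGF-beta signalling, the 9 described genes left out, 74 were tested. None was called by limma after adjustment. At an unadjusted p under 0.05, 2 were higher and 10 lower in Regenerating, 16.2% of those tested beside 12.8% of all genes, and the median log2 difference was -0.09. The 2 higher were gdf6a, a BMP-family ligand gene (log2 difference 1.82), and e2f5, a cell cycle transcription factor gene (1.53). Among the 10 lower were the BMP ligand genes bmp7a (-2.90) and bmp6 (-2.09) and the TGF-beta genes tgfb1a (-1.82) and tgfb3 (-1.77). Their relatives did not all share this direction. The genes bmp2b (1.00), bmp8a (1.05) and tgfb1b (0.22) were above 0, and tgfb2 (-0.03) and bmp4 (-1.42) below. None of these relatives had an unadjusted p under 0.05 by limma. The gene dcn (-0.93), counted above as a marker of epicardium and fibroblasts, was also among the 10 lower. All genes named so far in this paragraph were named after their values were seen. Also among the 10 lower were lft1, ltbp1 and acvr1l, which were counted as lower in the wider list too.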
